A study of Mus musculus with 12 samples.

Results

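Mature adipocytes in which TIP60 had been silenced were set directly against mature adipocytes in which Usp7 had been silenced. The comparison takes 8 of the 12 two-colour arrays of the series, 4 of TIP60-si and 4 of USP7-si, chosen by their labels alone. The 4 control-si arrays are used to show on which side of unsilenced cells a value lies. All groups are 3T3-L1 cells, a mouse preadipocyte line that stores lipid once differentiated. They were electroporated after differentiation with small interfering RNA against TIP60 (TIP60-si), against Usp7 (USP7-si) or with a control (control-si), and were lysed 2 days later in Trizol. The labels give no siRNA sequence and do not say whether more than 1 siRNA served either target. Whether the replicates of a group were grown apart is not stated either, so each p-value speaks for the spread among these samples, which may be technical.

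TIP60, encoded by Kat5, is the acetyltransferase of the NuA4 chromatin complex, where it acetylates histones H4 and H2A. It also modifies the tumour suppressor p53 and the DNA damage kinase ATM. USP7 is a protease that removes ubiquitin from its targets, among them p53 and the p53 ubiquitin ligase Mdm2, and so sets their stability. The series title places both proteins in 1 pathway of early fat cell formation, in which nuclear receptors such as PPARγ switch on the genes of lipid storage. The direct comparison asks which gene classes separate the loss of the acetyltransferase in fat cells from the loss of the deubiquitinase.

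Each value is a log2 ratio of the adipocyte sample over the common reference of the series (undifferentiated 3T3-L1 RNA) on the same array, with the fitted dye effect removed. A difference is the mean of TIP60-si minus the mean of USP7-si on that log2 scale, with the standard error (SE) of a limma fit over all 12 arrays. A probe was called where its p, adjusted over 41174 gene probes, was below 0.05. In each group Cy3 marked the sample of replicates 1 and 3, and Cy5 that of replicates 2 and 4. The raw sample signal had a median of 140 to 196 on the TIP60-si arrays, against 145 to 187 on the USP7-si arrays, over backgrounds of 39.5 to 43.0. Between 85.2% and 98.3% of gene probes were above background on an array, and the number of arrays limits the precision.

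One array, USP7-si replicate 4, differed from all others in its spread. Its log2 ratios had a median size of 0.0554, where the 4 TIP60-si arrays had 0.135 to 0.148 and the other 3 USP7-si arrays 0.109 to 0.123. The SD of all log2 ratios was 0.437 to 0.459 on the TIP60-si arrays, against 0.392 to 0.402 on the other 3 USP7-si arrays, 0.339 on USP7-si replicate 4 and 0.397 to 0.437 on the control-si arrays. A wider spread takes genes far above the reference, such as those of fat cells, further up, and genes far below it further down. The part of the spread in the results was not tested. Beside the counts of most lists stand those without that array, with all arrays scaled to an equal SD, or both. Scaling all 12 arrays to an equal spread, which widens USP7-si replicate 4 most, turned the direction of 28 of the 117 genes named here, Prl2c1, Prl2c5, Prl2c3, Ogn, Scd1, Thrsp, Agpat2, Adig, Lipe, Cidec, Pnpla2, Adipor2, Fitm2, Tk1, Spp1, Col1a1, Rbl2, Cdkn1b, Egr1, Myc, Prdx1, Uqcrc1, H2ac13, Runx2, Col12a1, Col4a5, Plk2 and Col6a3. Leaving out USP7-si replicate 4 made 21 of the named genes miss the threshold (adjusted p 0.0506 to 0.151), Thrsp, Acly, Pnpla2, Mgll, Col6a1, Col6a2, Cdkn2d, Rbl2, Cdkn1b, Ccng1, Egr2, H2ac13, Birc5, Fdps, Dkc1, Plk2, Mrgbp, Casp9, Hoxd9, Gclm and Col6a3. Leaving out TIP60-si replicate 3 or USP7-si replicate 1 did so for 27 each, and USP7-si replicate 3 for 25. The calls of 15 named genes held in fewer than 14 of the 27 alternatives run, H2ac13, Fos, Dkc1, Hoxd9, Rbl2, Col6a3, Egr1, Acly, Birc5, Col1a1, Plk2, Pnpla2, Txn2, Enpep and Prdx1. List members are given by their brightest probe, and the 15 largest rises and falls by the brightest of the gene's called probes whose groups did not overlap. Further probes existed for 59 of the 117, of which 23 had another called in the same direction, 36 had none called, and none had one called in the opposite direction. Fewer cells of a type and less RNA per cell cannot be told apart in these bulk samples.

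The fat cell markers were high in every group. Adipoq, the hormone adiponectin, averaged 5.84 ± 0.12 in TIP60-si, 5.75 ± 0.17 in USP7-si and 5.79 ± 0.24 in control-si cells (SD, n = 4 each), and was not called between the knockdowns (adjusted p = 0.753). Pparg averaged 2.45 ± 0.097 in TIP60-si and 2.55 ± 0.074 in USP7-si cells (SD, n = 4 each, adjusted p = 0.472). No member of the macrophage list (0 of 14) or of the muscle list (0 of 11) was called, and their per-array medians lay between 0.0026 and 0.071 and between -0.16 and -0.037 over both knockdowns. Of 10 endothelial markers 1 was called, and 0 without USP7-si replicate 4. Of 17 preadipocyte genes 1 was called higher in TIP60-si and 0 lower (median 0.056), and 0 higher without that array. The called gene, Thy1, differed by 0.25 (adjusted p = 0.0196), and a second Thy1 probe was called at 0.61 (adjusted p = 0.00237). Dlk1 (0.063), Pdgfra (-0.19) and Cd34 (0.073), further markers of undifferentiated cells, were not called.

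Both target transcripts were low in their own knockdown. Kat5 stood at -1.17, -1.22, -1.22 and -1.10 in the TIP60-si arrays, against -0.31, -0.12, -0.22 and -0.23 in the USP7-si arrays and -0.14, -0.39, -0.090 and -0.091 in the control-si arrays. The TIP60-si values lay below all others, with no overlap, and USP7-si and control-si overlapped. The difference between the knockdowns was -0.96 ± 0.068 (SE, adjusted p = 1.05e-05). Usp7 stood at -0.19, -0.10, -0.32 and -0.18 in the TIP60-si arrays, against -1.80, -2.09, -1.59 and -1.54 in the USP7-si arrays and 0.028, -0.069, -0.26 and -0.16 in the control-si arrays. Here the 4 USP7-si values were the low ones, and the difference was 1.56 ± 0.10 (SE, adjusted p = 7.78e-06). A second, dimmer Usp7 probe differed by -0.035 and was not called, so the labels rest on the brighter probe for Usp7. Neither knockdown was called on the other's transcript: Kat5 differed by -0.042 between USP7-si and control-si (adjusted p = 0.979), and Usp7 by -0.085 between TIP60-si and control-si (adjusted p = 0.759).

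Between the knockdowns 3037 probes were called, 7.38% of those tested, of which 1224 (2.97%) were higher and 1813 (4.40%) lower in TIP60-si. Most of these differences were small, with a median size of 0.283 on the log2 scale. Above 1.5-fold there were 62 higher and 57 lower probes, and above 2-fold 10 higher and 4 lower. In 2859 of the called probes the 4 arrays of one knockdown all lay beyond the 4 of the other, which also held for 14.8% of all gene probes. Taking each gene by its brightest probe, 1767 genes (9.66%) were called. Of these, 555 genes (3.03%) were higher and 1212 genes (6.62%) lower in TIP60-si, and these shares are the background for the gene lists. Without USP7-si replicate 4 they were 291 genes (1.59%) and 835 genes (4.56%). For the scaled settings such shares over genes were not counted. At an equal SD 551 probes were called higher and 1141 lower, fewer than the 1224 and 1813 as fitted. List counts at an equal SD therefore stand beside a lower rate of calls in all. As fitted, 201 of 1109 measured genes were called in the 51 lists used here. List medians below are by brightest probe. With each gene taken by the median of all its probes, several were smaller in size. They were -0.068 for the interferon list, -0.041 for p53 targets, -0.0083 for apoptosis and -0.025 for acetyltransferases and deacetylases. The mitosis median turned to 0.028. Those of the adipocyte (0.22), G1/S (0.12) and CDK inhibitor (-0.13) lists kept their direction.

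**Figure D1:**
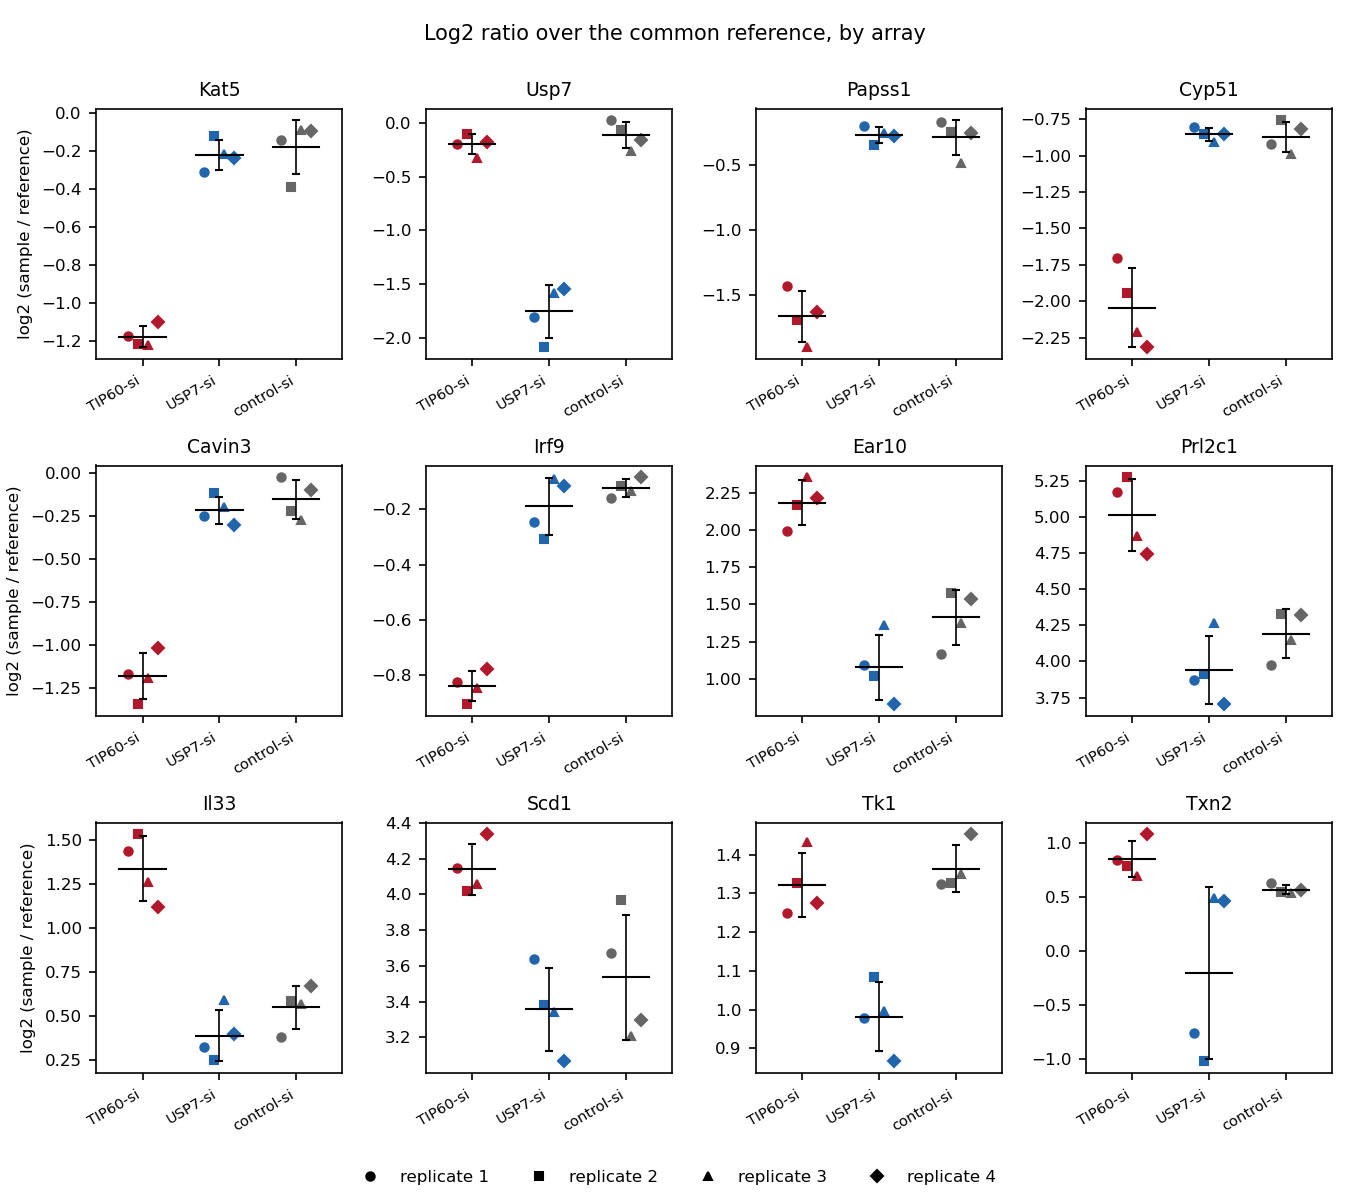
Log2 ratio over the common reference (y axis) for 12 genes on each array, with TIP60-si (red) left of USP7-si (blue) and control-si (grey); each symbol is a replicate, and the bar and whiskers are the mean and SD over 4 arrays. Kat5, Papss1, Cyp51, Cavin3 and Irf9 are low in TIP60-si only, Ear10, Prl2c1, Il33 and Scd1 are highest in TIP60-si, and Usp7 and Tk1 are low in USP7-si.

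The sequences that follow are of promoters of 2 contrasting gene classes and of 1 gene family, from RefSeq, build GRCm38.p6, read 5′ to 3′ on the gene's strand. Many interferon-induced genes, several of which were lower in TIP60-si, carry the interferon-stimulated response element, bound by a complex that holds Irf9. Its core was searched as GAAA, any 2 bases and GAAA on both strands in the 250 bases before each gene's start. It stood in 13 of 30 list members with a promoter sequence (43.3%) and in 2.98% of 32851 promoters. A member counted if any of its promoters matched, while the second share is over single promoters, so the units differ. The windows of Ifit1 (chr19:34640740-34640858 on the plus strand), Igtp (chr11:58199477-58199555 on the plus strand) and Irgm1 (chr11:48871421-48871495 on the minus strand) show the matches in capitals. In Irgm1 a pair of matches overlap.
Ifit1: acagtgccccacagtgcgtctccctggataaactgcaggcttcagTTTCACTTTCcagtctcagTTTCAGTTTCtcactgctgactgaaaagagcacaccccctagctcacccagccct
Igtp: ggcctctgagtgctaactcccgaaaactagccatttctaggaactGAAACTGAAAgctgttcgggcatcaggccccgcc
Irgm1: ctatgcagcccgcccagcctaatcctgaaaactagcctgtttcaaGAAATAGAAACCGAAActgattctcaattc
Of the members with a match, Bst2, Ifit1, Igtp and Irgm1 were called lower, and the rest, such as Isg15 and Oas1a, were not. The called Irf9, Irf1, Ifit2 and Ifi47 were not among the members with a match, though not every member had a promoter sequence. The matches show which letters these promoters hold and not that a factor bound there.

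Replication genes, several of which were higher in TIP60-si, are known targets of E2F factors. The E2F core was searched as TTTCCCGC or TTTGGCGC on both strands in the same window and counted in the same way. It stood in 6 of 34 members of the G1/S list with a promoter sequence (17.6%) and in 1.30% of all promoters. Of the members with a match, Mcm5 and Mcm7 were called higher, and Cdc6, Cdk2, Mcm6 and Pola1 were not called. The called Rfc3, Tk1, Cdc45 and Fen1 were not among the members with a match. The window of Mcm7 (chr5:138171996-138172093 on the minus strand) has its match, on the other strand, in capitals.
Mcm7: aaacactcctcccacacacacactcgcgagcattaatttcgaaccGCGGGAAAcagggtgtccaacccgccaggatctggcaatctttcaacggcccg
The Prl2c genes, among the largest rises, are near-identical copies. Over the 250 bases before their starts Prl2c3 and Prl2c5 were 96.0% identical (241 of 251 aligned positions). Their last 150 bases before the start, Prl2c3 at chr13:12800080-12800229 on the minus strand and Prl2c5 at chr13:13182566-13182715 on the plus strand, differ in the letters in capitals, which are other letters or missing in the other copy.
Prl2c3: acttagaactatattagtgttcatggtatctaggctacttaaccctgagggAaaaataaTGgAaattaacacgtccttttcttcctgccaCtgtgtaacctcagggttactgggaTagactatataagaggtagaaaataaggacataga
Prl2c5: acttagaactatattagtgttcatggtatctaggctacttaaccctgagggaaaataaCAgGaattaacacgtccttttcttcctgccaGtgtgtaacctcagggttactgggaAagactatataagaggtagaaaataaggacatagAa
Probe sequences were not used here, so probes of this family may read more than 1 member.

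Among the largest rises in TIP60-si over USP7-si were 2 families of secreted proteins. Eosinophil-associated ribonucleases are small RNases of the RNase A superfamily, known from eosinophils. Ear10 stood at 1.99, 2.17, 2.36 and 2.21 in the TIP60-si arrays, against 1.09, 1.02, 1.36 and 0.83 in the USP7-si arrays and 1.17, 1.57, 1.37 and 1.54 in the control-si arrays. Every TIP60-si value was above every other, while USP7-si and control-si overlapped. The difference was 1.10 ± 0.11 (SE, adjusted p = 0.000145). The pseudogene Ear-ps9 differed by 1.10 ± 0.12 (SE, adjusted p = 0.000216), Ear6 by 0.88 ± 0.10 (SE, adjusted p = 0.000302) and Rnase2a by 0.36 ± 0.072 (SE, adjusted p = 0.00896). In all 4 of 5 measured members were called higher and 0 lower, with a median difference of 0.88, and 0.79 without USP7-si replicate 4. These genes are close relatives (the Ear10 and Ear6 promoters matched at 79.6% of aligned positions), and a probe may read more than 1 of them.

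Prl2c genes encode proliferins, prolactin-related hormones first known from growing fibroblasts and placenta. Prl2c1 stood at 5.17, 5.28, 4.87 and 4.75 in the TIP60-si arrays, against 3.87, 3.92, 4.27 and 3.71 in the USP7-si arrays and 3.97, 4.33, 4.14 and 4.32 in the control-si arrays. Again all 4 TIP60-si values lay above the rest. The difference was 1.08 ± 0.13 (SE, adjusted p = 0.00049) for Prl2c1, 0.94 ± 0.13 (SE, adjusted p = 0.00134) for Prl2c5 and 0.89 ± 0.11 (SE, adjusted p = 0.000497) for Prl2c3, so that all 3 measured members were called. These genes stand far above the reference, where the spread of an array counts most. With every array scaled to an equal spread the family's median was -0.97 and no longer positive, and with USP7-si replicate 4 left out as well it was 0.090. Scaled to an equal SD it was 0.22, with 0 of 3 called.

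Among single genes, Il33, an alarm cytokine of the nucleus, stood at 1.44, 1.54, 1.26 and 1.12 in the TIP60-si arrays, against 0.32, 0.25, 0.59 and 0.40 in the USP7-si arrays and 0.38, 0.59, 0.57 and 0.67 in the control-si arrays. The TIP60-si values were apart from both other groups, and the difference was 0.95 ± 0.095 (SE, adjusted p = 0.00012). Its call held under all 27 alternative settings. Olr1, a receptor for oxidised lipoprotein, differed by 0.91 ± 0.14 (SE, adjusted p = 0.00237). Fosl1, an AP-1 subunit, differed by 0.86 ± 0.12 (SE, adjusted p = 0.00112). The adhesion protein Tmigd1 (1.04), the aminopeptidase Enpep (0.89), the proteoglycan Nepn (0.84) and the chloride channel protein Clic4 (0.83) completed the 15 largest, with adjusted p of 0.00872, 0.0355, 0.0089 and 0.00501. A second Enpep probe differed by 0.11 and the other Clic4 probes by 0.17 and 0.17, none of them called.

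Txn2, mitochondrial thioredoxin, was split within USP7-si. It stood at 0.84, 0.79, 0.69 and 1.09 in the TIP60-si arrays, against -0.76, -1.02, 0.49 and 0.47 in the USP7-si arrays and 0.63, 0.55, 0.54 and 0.56 in the control-si arrays. USP7-si replicates 1 and 2 were far below all other arrays, and USP7-si replicates 3 and 4 were just below control-si. The difference was 1.06 ± 0.27 (SE, adjusted p = 0.0302), with a second probe at 1.26, and the call held in 12 of 27 alternatives. Against control-si the gene was called neither in USP7-si (-0.78, adjusted p = 0.601) nor in TIP60-si (0.29, adjusted p = 0.671).

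The largest falls in TIP60-si included genes that stood near control-si in USP7-si. Papss1, which makes the activated sulfate that sulfotransferases use, stood at -1.43, -1.69, -1.90 and -1.63 in the TIP60-si arrays, against -0.20, -0.35, -0.26 and -0.28 in the USP7-si arrays and -0.17, -0.24, -0.48 and -0.25 in the control-si arrays. All TIP60-si values were far below the others, which overlapped. The difference was -1.40 ± 0.088 (SE, adjusted p = 6.15e-06). Cyp51, the lanosterol demethylase of cholesterol synthesis, stood at -1.71, -1.95, -2.21 and -2.31 in the TIP60-si arrays, against -0.80, -0.85, -0.91 and -0.85 in the USP7-si arrays and -0.92, -0.76, -0.99 and -0.82 in the control-si arrays. It showed the same separation on this probe, with a difference of -1.19 ± 0.10 (SE, adjusted p = 4.47e-05). The other 3 Cyp51 probes differed by -0.28 to -0.041, and 1 of them was called. Cavin3, a coat protein of caveolae, stood at -1.17, -1.35, -1.19 and -1.02 in the TIP60-si arrays, against -0.25, -0.11, -0.20 and -0.30 in the USP7-si arrays and -0.022, -0.22, -0.27 and -0.10 in the control-si arrays. Its TIP60-si values were again apart, and the difference was -0.97 ± 0.073 (SE, adjusted p = 1.88e-05). By their brightest probes it was the only called member of the 8 measured caveolae genes, also without USP7-si replicate 4, and 1 of 3 called lower at an equal SD. Of the dimmer probes, chosen after their values were seen, 1 of Cavin1 (0.50) and 1 of Ehd2 (0.41) were called higher (adjusted p = 0.00571 and 0.0237).

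The tetraspanin Cd151 differed by -0.85 ± 0.059 (SE, adjusted p = 1.05e-05). Osteoglycin (Ogn), a matrix proteoglycan far below the reference in all groups, differed by -0.98 ± 0.12 (SE, adjusted p = 0.000382). That direction turned to 1.11 with arrays scaled to an equal spread. Lrrc75b, a leucine-rich repeat protein, differed by -1.09 ± 0.059 (SE, adjusted p = 1.67e-06). The endoplasmic reticulum protein Ckap4 differed by -0.75 ± 0.070 (SE, adjusted p = 7.15e-05). In these 4 genes the array carried 1 probe.

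Several other large falls were smaller on the gene's other probes. Atg12, the ubiquitin-like protein of autophagy, stood at 0.21, 0.13, -0.14 and -0.0027 in the TIP60-si arrays, against 0.88, 0.71, 0.84 and 0.74 in the USP7-si arrays and 0.77, 0.91, 0.67 and 0.75 in the control-si arrays. The TIP60-si values did not overlap the other groups, and the difference was -0.75 ± 0.075 (SE, adjusted p = 0.00012), but its other probes differed by -0.11 to -0.090. The peroxisomal import receptor Pex5 differed by -0.74 on one probe and -0.011 on the other. The NF-kB subunit gene Nfkb1 differed by -0.73, with its other probes at -0.19 to -0.041. For the transcription factor Maf the values were -0.74 and -0.15 to 0.086, and for the chromatin protein Gatad1 -0.82 and -0.20 to -0.19. Ahcyl1, which binds inositol trisphosphate receptors, differed by -0.90, with other probes at -0.63 to -0.036 and 1 of them called. Bri3bp differed by -0.91, with other probes at -0.45 to -0.044 and 2 of them called.

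**Figure D2:**
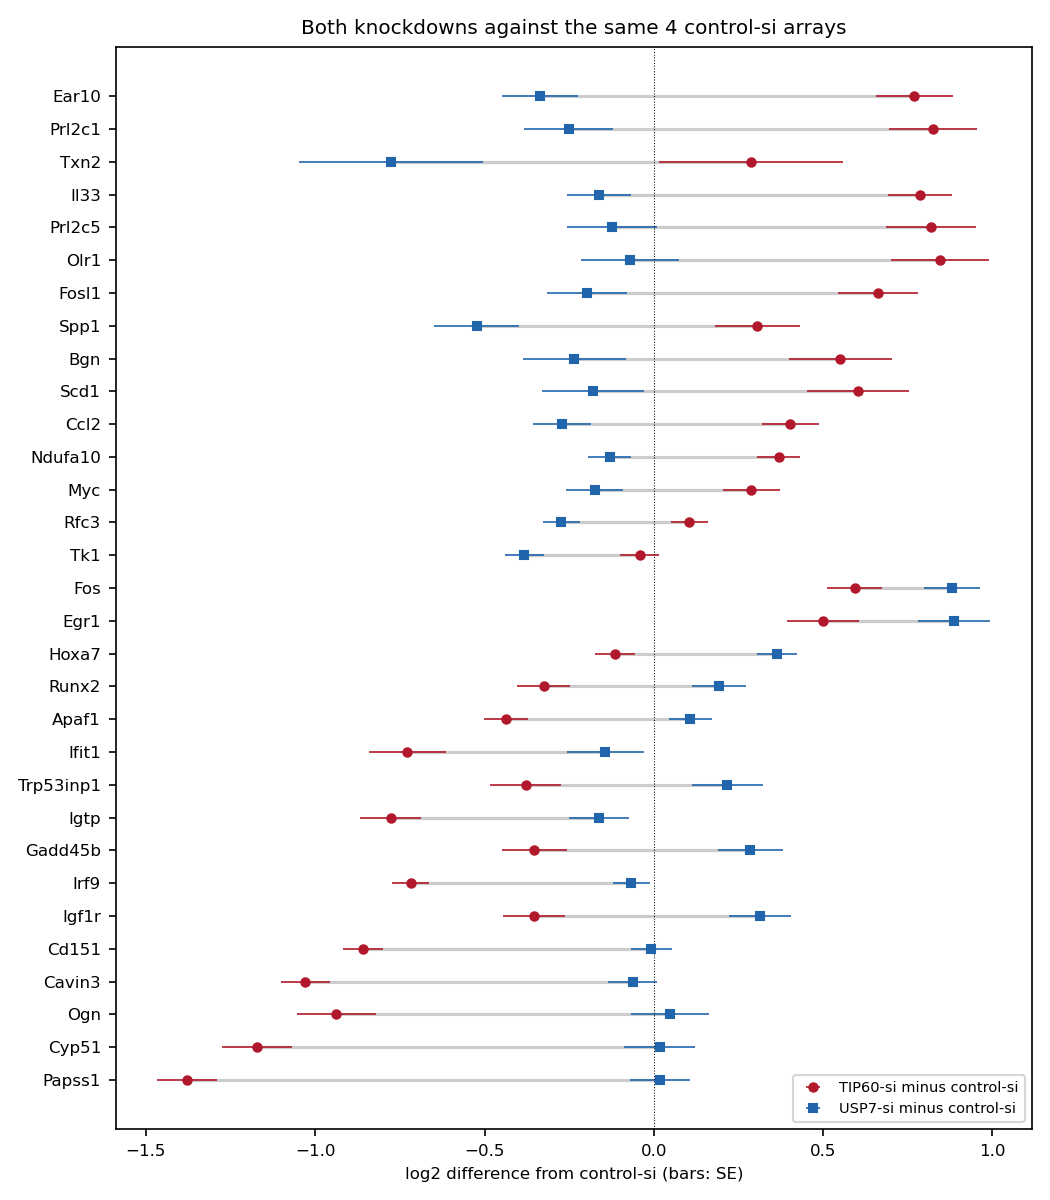
Log2 difference from control-si (x axis) for 31 genes named in the text, TIP60-si as red circles and USP7-si as blue squares, with SE bars, ordered from the highest to the lowest difference between the knockdowns. Both comparisons use the same 4 control-si arrays. The lowest genes, such as Papss1 and Cavin3, lie near 0 in USP7-si, Rfc3 and Tk1 lie near 0 in TIP60-si, and Fos and Egr1 are above 0 in both.

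Several genes of lipid storage were higher in TIP60-si than in USP7-si cells. Of 17 measured genes of the lipid droplet and of lipolysis, 8 were called higher and 1 lower in TIP60-si, with a median difference of 0.24. Of 27 genes of adipocyte identity, 7 were called higher and 0 lower, with a median of 0.23, against -0.0070 over all genes. The lists share Cidec, Lipe and Pnpla2, all called, and Plin1 and Plin4, which were not called. In fatty acid and triglyceride synthesis 4 of 21 were called higher and 0 lower (median 0.11). That was 2 higher without USP7-si replicate 4 (median 0.065), and 0 with the arrays also scaled to an equal spread (median -0.012).

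Lipe, hormone-sensitive lipase, stood at 2.83, 3.03, 3.36 and 3.23 in the TIP60-si arrays, against 2.49, 2.78, 2.57 and 2.10 in the USP7-si arrays and 2.69, 2.85, 2.58 and 2.53 in the control-si arrays. The knockdowns did not overlap, and the lowest value was that of USP7-si replicate 4. The difference was 0.63 ± 0.13 (SE, adjusted p = 0.0129). Scd1, the stearoyl-CoA desaturase that makes monounsaturated fatty acids, stood at 4.15, 4.02, 4.06 and 4.34 in the TIP60-si arrays, against 3.64, 3.38, 3.34 and 3.07 in the USP7-si arrays and 3.67, 3.97, 3.21 and 3.30 in the control-si arrays. The knockdowns again did not overlap, control-si overlapped only USP7-si, and the difference was 0.78 ± 0.15 (SE, adjusted p = 0.00724). Fabp5, a fatty acid carrier that stands closer to the reference, stood at 1.16, 1.07, 1.12 and 1.11 in the TIP60-si arrays, against 0.74, 0.71, 0.56 and 0.59 in the USP7-si arrays and 0.76, 0.77, 0.58 and 0.68 in the control-si arrays. Its TIP60-si values lay above both other groups, and the difference was 0.46 ± 0.056 (SE, adjusted p = 0.00049). A second Fabp5 probe was called at 0.33, and of the other Lipe probes (0.058 and 0.56) 1 was called.

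Adig (adipogenin) differed by 0.78 ± 0.14 (SE, adjusted p = 0.00503) and Cidec, which fuses lipid droplets, by 0.54 ± 0.12 (SE, adjusted p = 0.0126). Thrsp, a lipogenic regulator, differed by 0.79 (adjusted p = 0.0267), and Agpat2, an acyltransferase of triglyceride synthesis, by 0.58 (adjusted p = 0.00102). The triglyceride lipase Pnpla2 (0.38), the monoglyceride lipase Mgll (0.44), the lipid droplet protein Fitm2 (0.48), the adiponectin receptor Adipor2 (0.35) and the citrate lyase Acly (0.25) were also called higher. On other probes Pnpla2 (0.73), Mgll (0.65) and Agpat2 (0.49) were called too, while Fitm2 (0.19), Adipor2 (0.056 and 0.097) and Acly (-0.012) were not. Plin3, the perilipin found in many cell types, was the called member on the other side, at -0.31 ± 0.051 (SE, adjusted p = 0.00285).

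These counts differed between settings. The median of the adipocyte list stood at 2.48, 2.82, 2.77 and 2.89 in the TIP60-si arrays, against 2.49, 2.25, 2.39 and 1.66 in the USP7-si arrays and 2.48, 2.74, 2.36 and 2.44 in the control-si arrays. The knockdowns overlapped, and USP7-si replicate 4 was far below the rest. Without it the list's median difference was 0.040 with 5 genes called higher and 0 lower, and that of the lipid droplet list 0.055 with 4 higher and 1 lower. With the arrays scaled to an equal SD the medians were -0.13 for the adipocyte list, with 2 called higher and 9 lower, and -0.028 for the lipid droplet list, with 0 higher and 3 lower. Scaled and without USP7-si replicate 4, Scd1, Thrsp, Lipe, Cidec and Pnpla2 turned to values at or below 0. Fabp5 kept its direction in each of the 27 alternative settings and its call in 23.

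Several genes of DNA replication were lower in USP7-si than in TIP60-si cells. Of 41 measured genes of the G1/S transition and replication, 9 were called higher and 2 lower in TIP60-si, with a median of 0.14. Tk1, the thymidine kinase of S phase, stood at 1.25, 1.33, 1.43 and 1.27 in the TIP60-si arrays, against 0.98, 1.08, 0.996 and 0.87 in the USP7-si arrays and 1.32, 1.33, 1.35 and 1.45 in the control-si arrays. TIP60-si overlapped control-si, and all USP7-si values were below both. The difference was 0.34 ± 0.058 (SE, adjusted p = 0.00388), and against control-si Tk1 was called in USP7-si (-0.38, adjusted p = 0.0244) and not in TIP60-si (-0.042, adjusted p = 0.792). Rfc3, a subunit of the clamp loader, stood at 0.62, 0.54, 0.65 and 0.64 in the TIP60-si arrays, against 0.26, 0.24, 0.24 and 0.20 in the USP7-si arrays and 0.35, 0.51, 0.59 and 0.59 in the control-si arrays. USP7-si was again the low group, without overlap, and the difference was 0.38 ± 0.055 (SE, adjusted p = 0.0016). The helicase gene Mcm7, with the E2F core printed above, stood at 0.46, 0.45, 0.51 and 0.48 in the TIP60-si arrays, against 0.23, 0.29, 0.26 and 0.18 in the USP7-si arrays and 0.46, 0.40, 0.43 and 0.55 in the control-si arrays. It showed the same order, with a difference of 0.24 ± 0.047 (SE, adjusted p = 0.0086).

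The origin factor Cdc45 differed by 0.33 ± 0.073 (SE, adjusted p = 0.0142) and the flap nuclease Fen1 by 0.27 ± 0.053 (SE, adjusted p = 0.00774). Cyclin E (Ccne1) ran the other way, at -0.23 ± 0.051 (SE, adjusted p = 0.0161), with a second, uncalled probe at -0.020. Relative to control-si the median of the whole list was -0.11 in TIP60-si and -0.22 in USP7-si. Without USP7-si replicate 4 the median between the knockdowns was 0.091 with 5 genes called higher and 1 lower, and it was -0.0016 with the arrays scaled as well. The number of mitotic genes called depended on the scaling. Of 35 measured, 0 were called higher and 1 lower (median -0.058), and the median against control-si was -0.29 in TIP60-si and -0.30 in USP7-si. The called one, survivin (Birc5), differed by -0.29 ± 0.081 (SE, adjusted p = 0.0436), its knockdown arrays overlapped, and it missed the threshold without USP7-si replicate 4 (adjusted p = 0.0742). In mitosis 8 genes were called lower at an equal SD (median -0.13), 8 with quantile normalization, 9 at an equal spread without USP7-si replicate 4 (median -0.24), 0 without that array unscaled (median -0.099) and 4 on the authors' deposited ratios, with 0 higher in each.

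**Figure D3:**
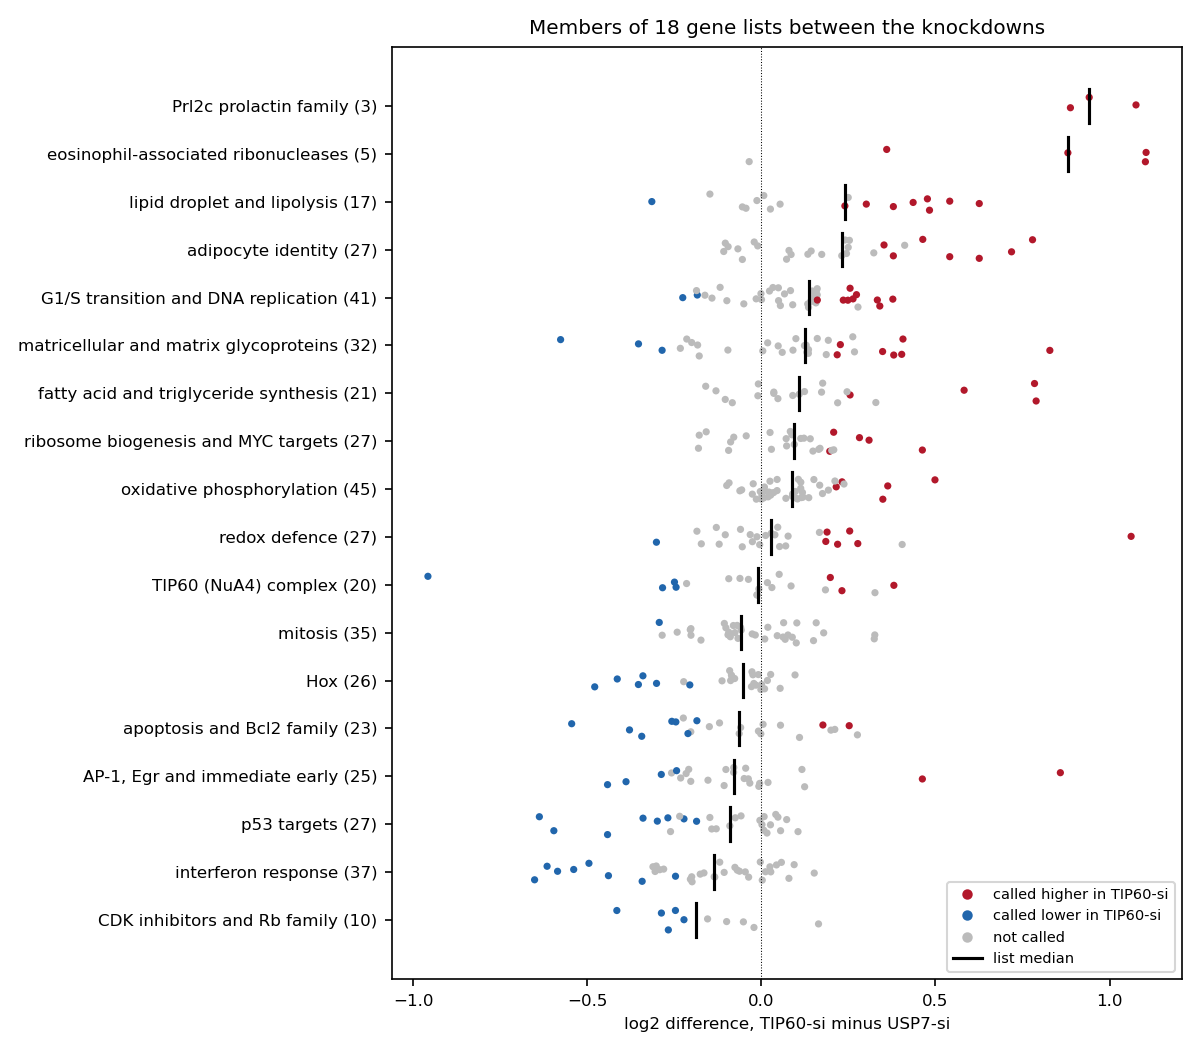
Log2 difference of TIP60-si minus USP7-si (x axis) for the members of 18 gene lists (number measured in brackets), 1 point per gene, red where called higher in TIP60-si, blue where called lower and grey where not called; black bars are list medians. The Prl2c and ribonuclease families lie furthest right, and the called interferon, p53 and CDK inhibitor genes all lie left of 0.

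Several interferon-induced genes were lower in TIP60-si. Of 37 measured, 8 were called lower and 0 higher, beside the background of 6.62% lower, with a median of -0.14. Irf9, the DNA-binding subunit of the factor that reads the response element, stood at -0.83, -0.91, -0.85 and -0.78 in the TIP60-si arrays, against -0.24, -0.31, -0.090 and -0.12 in the USP7-si arrays and -0.16, -0.12, -0.13 and -0.082 in the control-si arrays. The TIP60-si values were far below the other groups, which overlapped, and the difference was -0.65 ± 0.054 (SE, adjusted p = 3.77e-05). A second Irf9 probe differed by -0.15 and was not called. Igtp, an interferon-inducible GTPase, stood at 0.30, 0.30, 0.29 and 0.31 in the TIP60-si arrays, against 0.81, 0.75, 1.12 and 0.98 in the USP7-si arrays and 0.83, 1.18, 1.24 and 1.06 in the control-si arrays. The TIP60-si values lay close together and below all others, with a difference of -0.62 ± 0.089 (SE, adjusted p = 0.0015). Ifit1, a sensor of foreign RNA, stood at -0.43, -0.58, -0.71 and -0.23 in the TIP60-si arrays, against 0.14, -0.13, 0.31 and 0.073 in the USP7-si arrays and 0.012, 0.20, 0.38 and 0.37 in the control-si arrays. It too was lowest in every TIP60-si array, with a difference of -0.59 ± 0.11 (SE, adjusted p = 0.00767).

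The related GTPase Irgm1 differed by -0.49 ± 0.090 (SE, adjusted p = 0.00545), Ifit2 by -0.44 ± 0.078 (SE, adjusted p = 0.0049) and the transcription factor Irf1 by -0.25 ± 0.050 (SE, adjusted p = 0.00966). Second probes of Ifit2 (0.019) and Irf1 (0.11) were not called, and of the other Irgm1 probes (-0.44 and 0.0030) 1 was. Without USP7-si replicate 4, 7 members were called lower and the median was -0.14. The list as a whole did not part the knockdowns by array: its median stood at 0.19, 0.14, 0.26 and 0.25 in the TIP60-si arrays, against 0.18, 0.17, 0.34 and 0.26 in the USP7-si arrays and 0.22, 0.44, 0.52 and 0.42 in the control-si arrays, with overlap of all groups. Relative to control-si the list's median was -0.31 in TIP60-si and -0.16 in USP7-si. Of 32 NF-kB, cytokine and chemokine genes 2 were called higher and 2 lower in TIP60-si (median -0.011). Tnfaip3, an inhibitor of NF-kB signalling, was lower in TIP60-si, at -0.29 ± 0.057 (SE, adjusted p = 0.00804). The chemokine Ccl2 was higher: it stood at 1.24, 1.14, 1.05 and 0.88 in the TIP60-si arrays, against 0.38, 0.46, 0.42 and 0.35 in the USP7-si arrays and 0.43, 0.70, 0.79 and 0.77 in the control-si arrays. TIP60-si held the highest values, without overlap, and the difference was 0.67 ± 0.085 (SE, adjusted p = 0.000632).

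Several brakes of the cell cycle were lower in TIP60-si. Of 10 CDK inhibitors and Rb family genes, 5 were called lower and 0 higher, with a median of -0.19. Cdkn2a, the locus of the p16 and Arf tumour suppressors, stood at 0.18, 0.22, 0.25 and 0.22 in the TIP60-si arrays, against 0.52, 0.68, 0.68 and 0.66 in the USP7-si arrays and 0.67, 0.81, 0.89 and 0.58 in the control-si arrays. TIP60-si was below both other groups, and the difference was -0.41 ± 0.064 (SE, adjusted p = 0.00222). Cdkn1a, the CDK inhibitor p21 and a target of p53, stood at -0.051, -0.039, -0.041 and 0.14 in the TIP60-si arrays, against 0.31, 0.25, 0.21 and 0.13 in the USP7-si arrays and 0.22, 0.12, 0.22 and 0.27 in the control-si arrays. TIP60-si replicate 4 overlapped USP7-si, and the difference was -0.22 ± 0.057 (SE, adjusted p = 0.0319). The inhibitors Cdkn2d (-0.29, adjusted p = 0.037) and Cdkn1b (-0.25, adjusted p = 0.0197) and the Rb relative Rbl2 (-0.27, adjusted p = 0.0376) were the other called members. Other probes were uncalled for Cdkn1b (-0.10 and 0.014) and Rbl2 (-0.098). Without USP7-si replicate 4, 2 of the list were called lower, and the median was -0.24. The list's median by array was 0.18 to 0.26 in TIP60-si and 0.25 to 0.38 in USP7-si, so the knockdowns overlapped. Of 27 alternatives the call held in 23 for Cdkn2a, 14 each for Cdkn2d, Cdkn1b and Cdkn1a, and 9 for Rbl2.

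Of 27 p53 targets, 8 were called lower and 0 higher (median -0.090), Cdkn1a among them, with 5 called lower without USP7-si replicate 4. The list did not move as 1: 17 members lay below 0 and 10 above. Among those not called were Mdm2 (0.11), Sesn2 (0.055), Gadd45a (0.016), Pmaip1 (-0.0041) and Bbc3 (-0.15). The genes that follow are called members. Gadd45b, a stress sensor of the Gadd45 family, stood at -1.62, -1.65, -1.68 and -1.75 in the TIP60-si arrays, against -1.04, -1.28, -1.14 and -0.69 in the USP7-si arrays and -1.26, -1.27, -1.32 and -1.43 in the control-si arrays. The means of the knockdowns lay on opposite sides of the control-si mean, and the difference was -0.64 ± 0.096 (SE, adjusted p = 0.00194), but neither side was called against control-si (adjusted p = 0.0602 in TIP60-si and 0.565 in USP7-si). A second Gadd45b probe, at -0.15, was not called. Trp53inp1, a p53-induced nuclear protein, differed by -0.60 ± 0.11 (SE, adjusted p = 0.00473) on this probe and by 0.18, uncalled, on another. The antiproliferative gene Btg2 differed by -0.44 ± 0.096 (SE, adjusted p = 0.0135) and was above background on 3 of 4 TIP60-si arrays, while its other probes, at 0.059 and 0.12, ran the other way and were not called. Cyclin G (Ccng1) differed by -0.34 ± 0.085 (SE, adjusted p = 0.0274), with a second, uncalled probe at 0.013. Plk2 differed by -0.30 ± 0.074 (SE, adjusted p = 0.026) and the sestrin Sesn1 by -0.27 ± 0.052 (SE, adjusted p = 0.00741).

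In the apoptosis list 7 of 23 were called lower and 2 higher (median -0.063), against 5 lower and 1 higher without USP7-si replicate 4. Apaf1, the scaffold of the apoptosome, stood at -1.08, -1.19, -1.32 and -1.35 in the TIP60-si arrays, against -0.72, -0.70, -0.67 and -0.68 in the USP7-si arrays and -0.73, -0.78, -0.94 and -0.76 in the control-si arrays. TIP60-si was lowest without overlap, and the difference was -0.54 ± 0.064 (SE, adjusted p = 0.000378), but its other probes, at -0.28 and 0.050, were not called. The caspases Casp2 (-0.38, adjusted p = 0.0016) and Casp9 (-0.25, adjusted p = 0.0188) were lower too, as was Birc3 (-0.26, adjusted p = 0.00749), an inhibitor of apoptosis, with a second, uncalled probe at -0.016.

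**Figure D4:**
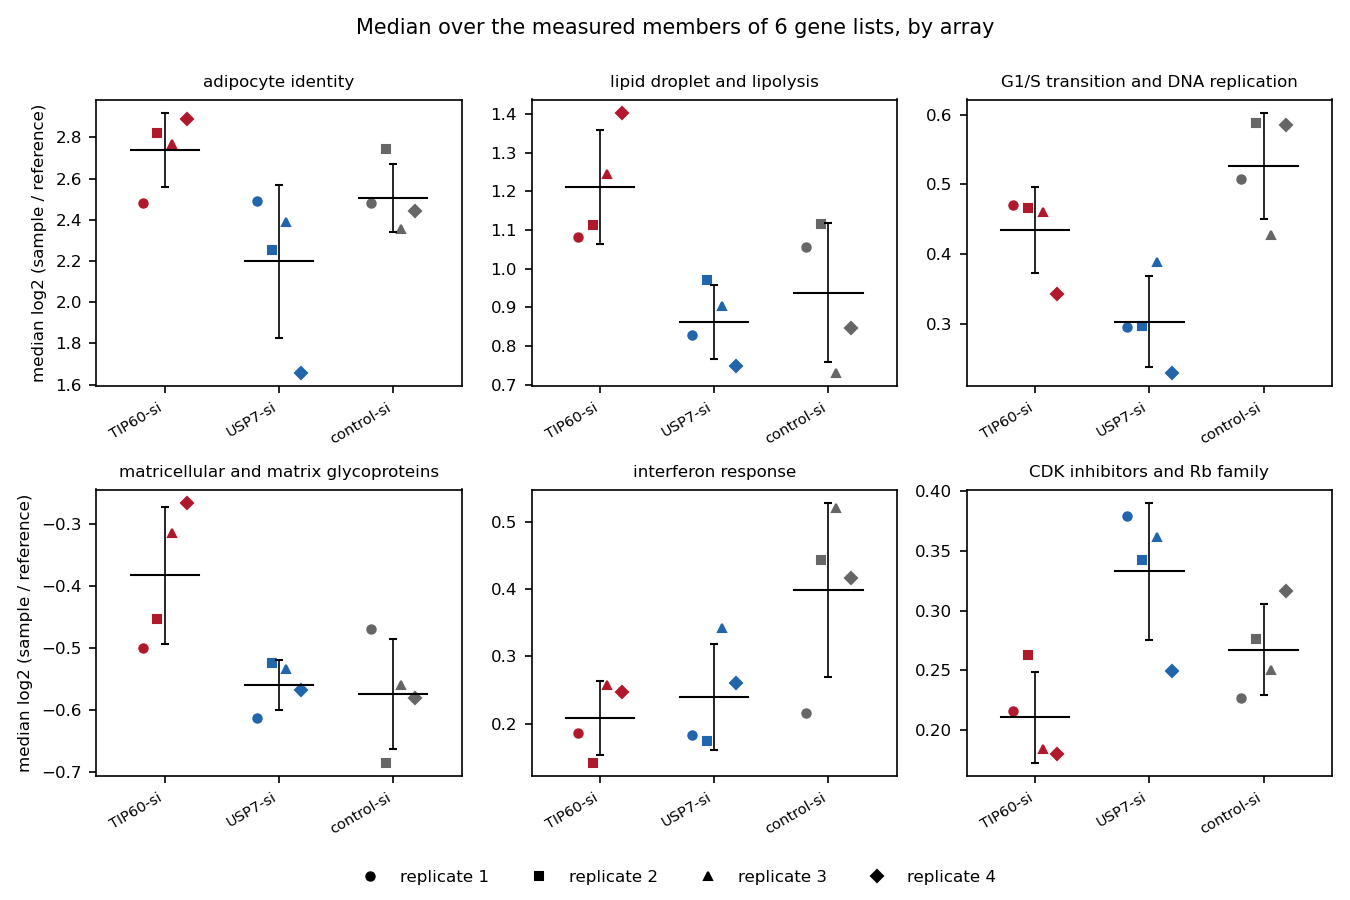
Median log2 ratio over the measured members of 6 gene lists on each array (y axis), with TIP60-si (red) left of USP7-si (blue) and control-si (grey); symbols are replicates, and bars and whiskers are the mean and SD of 4 arrays. USP7-si replicate 4 is the lowest point of the adipocyte list. The lipid droplet and matrix lists separate the knockdowns without overlap, and in the adipocyte, G1/S, interferon and CDK inhibitor lists the knockdowns overlap.

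Among immediate early genes, Fos and Egr1 were above control-si in both knockdowns and highest in USP7-si. Fos, an AP-1 subunit that cells induce within minutes of a stimulus, stood at -0.15, -0.12, -0.39 and -0.47 in the TIP60-si arrays, against 0.027, 0.022, 0.076 and -0.11 in the USP7-si arrays and -0.83, -0.81, -1.05 and -0.82 in the control-si arrays. Both knockdowns were above control-si, USP7-si more so, and the knockdowns differed by -0.29 ± 0.082 (SE, adjusted p = 0.0484). That call held in 7 of 27 alternatives, and the adjusted p was 0.0702 on the authors' deposited ratios, 0.105 at an equal SD, 0.119 with the sample in Cy3 only and 0.487 in Cy5 only. Egr1, a zinc-finger factor of the same kind, stood at -1.38, -1.40, -1.61 and -1.26 in the TIP60-si arrays, against -0.87, -1.15, -0.93 and -1.14 in the USP7-si arrays and -1.68, -1.84, -2.21 and -1.90 in the control-si arrays. The order was the same, with a difference of -0.39 ± 0.11 (SE, adjusted p = 0.0411) between the knockdowns that was called in 11 of 27 alternatives. Egr2 differed by -0.24 ± 0.060 (SE, adjusted p = 0.0258). Of 25 measured members 4 were called lower and 2 higher in TIP60-si, against 2 lower and 1 higher at an equal SD. Besides Fos, Egr1 and Egr2 the lower ones held Btg2, which is also counted among the p53 targets. The higher ones were Fosl1 and Myc, the growth regulator, which differed by 0.46 ± 0.084 (SE, adjusted p = 0.00527) with 2 further probes also called. Myc is counted again in the list of ribosome biogenesis and MYC targets.

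Hox genes, which set the position of a tissue along the body axis, were called lower in 6 of 26 cases and higher in 0 (median -0.052). Hoxa7 stood at -1.01, -0.92, -0.97 and -0.84 in the TIP60-si arrays, against -0.37, -0.51, -0.52 and -0.43 in the USP7-si arrays and -0.68, -0.85, -0.88 and -0.87 in the control-si arrays. USP7-si was above both other groups, and the difference was -0.48 ± 0.059 (SE, adjusted p = 0.000549), with Hoxa7 called against control-si in USP7-si (0.36, adjusted p = 0.0355) and not in TIP60-si (-0.11, adjusted p = 0.35). Hoxa2 stood at -0.40, -0.32, -0.54 and -0.38 in the TIP60-si arrays, against 0.0097, -0.12, -0.069 and -0.091 in the USP7-si arrays and -0.077, -0.13, -0.023 and -0.048 in the control-si arrays. Here TIP60-si was the group apart, so the 2 genes reached the same sign from different knockdowns. The difference was -0.34 ± 0.053 (SE, adjusted p = 0.00236). Hoxb3 (-0.41), Hoxb2 (-0.35), Hoxa5 (-0.30) and Hoxd9 (-0.21) were the other called members, with uncalled second probes of Hoxb3 (-0.082) and Hoxd9 (0.13). In all 5 were lower without USP7-si replicate 4.

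A growth factor receptor and a pair of lineage factors were also lower in TIP60-si. Igf1r, the receptor of insulin-like growth factor, stood at -1.68, -1.72, -1.89 and -1.60 in the TIP60-si arrays, against -1.04, -1.17, -1.02 and -0.99 in the USP7-si arrays and -1.09, -1.46, -1.57 and -1.36 in the control-si arrays. The knockdowns did not overlap and control-si lay between their means, with a difference of -0.67 ± 0.092 (SE, adjusted p = 0.00117), while its other probes differed by -0.10 to 0.075. Runx2, a bone lineage factor, differed by -0.52 ± 0.078 (SE, adjusted p = 0.00197), with its other probes at -0.49 to 0.16. Lef1, a nuclear partner of Wnt signalling, differed by -0.46 ± 0.096 (SE, adjusted p = 0.0115) on 1 of its 4 probes, with the others at -0.037 to 0.032. In the Wnt list 5 of 31 were called lower and 1 higher, against 4 lower without USP7-si replicate 4 and 1 lower at an equal SD.

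The extracellular matrix was split. Of 32 matricellular proteins and matrix glycoproteins, 7 were called higher and 3 lower in TIP60-si (median 0.13). It was 4 higher and 2 lower without USP7-si replicate 4 (median 0.13), and at an equal SD 8 higher and 2 lower. Spp1, osteopontin, stood at 3.25, 3.16, 3.00 and 2.61 in the TIP60-si arrays, against 2.17, 2.11, 2.20 and 2.23 in the USP7-si arrays and 2.40, 2.71, 2.74 and 2.95 in the control-si arrays. The USP7-si values were below both other groups, TIP60-si overlapped control-si, and the difference was 0.83 ± 0.13 (SE, adjusted p = 0.00197). It was 0.85 (adjusted p = 0.00508) without USP7-si replicate 4, and 0.42 (adjusted p = 0.131) at an equal SD. Thrombospondin Thbs2 (0.40, adjusted p = 0.00567), the secreted factor Ccn5 (0.38, adjusted p = 0.00258) and nidogen Nid1 (0.35, adjusted p = 0.00721) were higher, and the other nidogen, Nid2, was lower at -0.58 ± 0.098 (SE, adjusted p = 0.00385). The proteoglycan biglycan (Bgn) stood at 0.61, 0.32, 0.75 and 0.84 in the TIP60-si arrays, against -0.37, 0.085, -0.25 and -0.092 in the USP7-si arrays and -0.12, -0.25, 0.49 and 0.21 in the control-si arrays. The knockdowns did not overlap, and the difference was 0.79 ± 0.15 (SE, adjusted p = 0.00745), but a second Bgn probe differed by -0.0096.

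Among 24 collagens 3 were called higher and 4 lower. The called rises were all of the microfibril collagen VI, with Col6a1 at 0.49, Col6a2 at 0.49 and Col6a3 at 0.38 (adjusted p = 0.0283, 0.0314 and 0.0393). A second Col6a2 probe, at -0.11, was not called, and of the other Col6a3 probes (0.088 to 0.57) 1 was. Col1a1, of the main fibrillar collagen, was lower at -0.48 ± 0.13 (SE, adjusted p = 0.0336), but its other probes, at -0.29 and 0.18, were not called, and the call held in 12 of 27 alternatives. Col12a1 (-0.34, other probes -0.45 to -0.011 with 1 called) and Col4a5 (-0.33) were lower too. Without USP7-si replicate 4, 0 collagens were called higher and 4 lower, and at an equal SD 1 higher and 0 lower.

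A few mitochondrial and growth genes were higher in TIP60-si. In oxidative phosphorylation 5 of 45 were called higher and 0 lower (median 0.089). It was 4 higher without USP7-si replicate 4 (median 0.060), while at an equal SD the median turned to -0.064 with 2 higher, with quantile normalization to -0.053 with 2 higher, and at an equal spread without that array to -0.091 with 1 higher. Ndufa10, a complex I subunit, stood at 1.25, 1.13, 1.33 and 1.43 in the TIP60-si arrays, against 0.75, 0.80, 0.76 and 0.84 in the USP7-si arrays and 0.87, 0.85, 1.02 and 0.93 in the control-si arrays. TIP60-si was above both other groups, and the difference was 0.50 ± 0.064 (SE, adjusted p = 0.000748). Ndufs8, of the same complex, differed by 0.36 ± 0.061 (SE, adjusted p = 0.00362) and the complex III core protein Uqcrc1 by 0.35 ± 0.065 (SE, adjusted p = 0.00622). In the citrate cycle list 4 of 27 were higher and 2 lower (median 0.062). None of the citrate cycle list was called higher without USP7-si replicate 4 (0 higher and 2 lower, median 0.082), nor at an equal SD (0 higher and 3 lower, median -0.041). Redox defence had 6 of 27 higher, among them the peroxiredoxin Prdx1 (0.28) and the glutathione synthesis subunit Gclm (0.25), and 1 lower, glutathione reductase Gsr (-0.30). The higher calls were 2 without USP7-si replicate 4 and 1 at an equal SD, where the list's median was -0.035, against 0.029 as fitted. The other probes of Prdx1 (-0.011 and 0.020) and Gclm (-0.097 and 0.12) were not called. Of ribosome biogenesis and MYC targets 5 of 27 were higher and 0 lower (median 0.095), among them nucleolin Ncl (0.21), the nucleolar protein Mybbp1a (0.31) and dyskerin Dkc1 (0.28). That was 3 higher both without USP7-si replicate 4 and at an equal SD.

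The chromatin machinery around the targets moved in both directions. Of 20 genes in the TIP60 complex list, 3 were called higher and 4 lower, Kat5 among the lower, against 1 higher and 3 lower at an equal SD. Besides subunits of the complex the list holds the histone variant genes H2az1 and H2az2. Vps72, which loads the histone variant H2A.Z, stood at 1.03, 0.83, 1.07 and 1.03 in the TIP60-si arrays, against 0.58, 0.61, 0.50 and 0.75 in the USP7-si arrays and 0.50, 0.47, 0.77 and 0.74 in the control-si arrays. TIP60-si lay above both other groups, and the difference was 0.38 ± 0.080 (SE, adjusted p = 0.0117), with a second, uncalled probe at 0.11. H2az1, which encodes H2A.Z, was lower at -0.24 ± 0.047 (SE, adjusted p = 0.00745), as were the complex members Morf4l2 (-0.25) and Mrgbp (-0.28). Of 28 other acetyltransferases and deacetylases 4 were called lower and 0 higher, among them the deacetylase Sirt1 (-0.33, adjusted p = 0.00306) and the coactivator Ncoa2 (-0.40, adjusted p = 0.00215). At an equal SD 2 of this list were lower, and the other probes of Sirt1 (-0.051) and Ncoa2 (-0.10 to 0.096) were not called. Among USP7 partners and substrates 2 of 24 were higher and 3 lower, with a median of 0.0046, against 1 higher and 1 lower at an equal SD. Both silenced targets are counted in this list, Usp7 (1.56) as its highest and Kat5 (-0.96) as its lowest member. Each was called in all 27 alternatives, so the calls at an equal SD are the targets themselves.

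Replication-dependent histone genes, transcribed in S phase, included a gene below control-si in both knockdowns. H2ac13 stood at 0.84, 0.94, 0.98 and 0.82 in the TIP60-si arrays, against 0.72, 0.71, 0.76 and 0.59 in the USP7-si arrays and 1.23, 1.36, 1.19 and 1.30 in the control-si arrays. USP7-si was the lowest, TIP60-si lay between, and the knockdowns differed by 0.20 ± 0.057 (SE, adjusted p = 0.0464), a call that held in 6 of 27 alternatives. H3c14 went the other way: it stood at 0.27, 0.25, 0.41 and 0.31 in the TIP60-si arrays, against 0.60, 0.76, 0.62 and 0.58 in the USP7-si arrays and 0.64, 0.66, 0.65 and 0.64 in the control-si arrays. TIP60-si alone was low, and the difference was -0.33 ± 0.051 (SE, adjusted p = 0.00212). These genes are copies of one another, and their probes may read several.

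In cholesterol synthesis 1 of 20 genes was called higher, the farnesyl diphosphate synthase Fdps (0.25, adjusted p = 0.0172), and 3 lower, with a median of -0.038. A second Fdps probe, at -0.059, was not called. It was 0 higher and 3 lower in this list without USP7-si replicate 4, and 1 and 1 at an equal SD. In the lysosome and autophagy list 5 of 29 were lower and 1 higher (median 0.0016), against 3 lower and 0 higher without USP7-si replicate 4.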

How the data were processed

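Per the series' protocol text, the authors used an Agilent G2565BA scanner and Imagene, then print-tip loess on gene probes, leaving background uncorrected. From the deposited scanner files the spot and background intensity of either dye (linear scale) were taken. The authors' deposited log2 ratios equal those of their normalized intensity files to within 5e-06 and served as an alternative. Spots (41174 gene probes after 4046 control spots) were corrected with normexp (offset 50) and normalized by loess within each array in limma 3.58.1 under R 4.3.3, control spots with weight 0, with no scaling between arrays. Ratios were turned to sample over reference. One linear model over 12 arrays held group and dye orientation, with eBayes, two-sided tests and Benjamini-Hochberg adjustment. A probe more than 2 background SDs above background counted as above it. The scripts were tested on simulated data.

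Symbols came from the platform annotation, with 3726 brought up to date through a mouse RefSeq table, and covered 18295 genes. Named genes are Kat5 and Usp7, the 15 largest rises and falls among called probes with non-overlapping groups, and, per list, up to 6 members by smallest p. The gene classes and lists were chosen with earlier results of these data known. In lists each gene is its brightest probe. Lists are described by counts and medians and were not tested.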

Additional observations from a re-analysis of the deposited data

Results flagged for a closer look

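Of 262 sets of 4 arrays tested (each named gene and described list in each knockdown), 15 held an array whose gap to its nearest neighbour took up more of the set's range than Dixon's 95% critical value for 4 samples. Chance alone gives about 1 in 20.

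USP7-si replicate 4 was the low array for Fosl1 (1.25, the others 1.70 to 1.73), Nepn (0.42, the others 0.82 to 0.90) and Adig (1.54, the others 2.21 to 2.25). USP7-si replicate 2 was high for Clic4 (1.01, the others 0.44 to 0.52) and Hoxd9 (0.016, the others -0.067 to -0.057) and low for Adipor2 (0.93, the others 1.02 to 1.03). USP7-si replicate 1 was low for Cdkn2a (0.52, the others 0.66 to 0.68).

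TIP60-si replicate 4 was high for Rbl2 (-0.52, the others -0.83 to -0.79) and Cdkn1a (0.14, the others -0.051 to -0.039). It was low for Casp2 (-0.21, the others -0.12 to -0.11), Prdx1 (0.53, the others 0.84 to 0.86) and the median of the G1/S and replication list (0.34, the others 0.46 to 0.47). TIP60-si replicate 3 was low for Lrrc75b (-1.53, the others -1.39 to -1.37) and Ncoa2 (-0.86, the others -0.70 to -0.68), and TIP60-si replicate 2 for Vps72 (0.83, the others 1.03 to 1.07).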

How the results depend on the processing

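The comparison was repeated under 27 alternatives, 3 of them scalings chosen after seeing the data (equal spread without USP7-si replicate 4, equal SD, and the form of quantile normalization). Counts are probes called in all, higher and lower in TIP60-si, and list genes called, against 3037, 1224, 1813 and 201 as reported. They were 1084, 326, 758 and 92 with plain background subtraction, 41, 18, 23 and 14 with median centring in place of loess, and 310, 59, 251 and 27 with arrays scaled to an equal spread. Quantile normalization gave 1581, 577, 1004 and 140, equal spread without USP7-si replicate 4 gave 1272, 342, 930 and 120, and equal SD gave 1692, 551, 1141 and 148. Without the dye term they were 1373, 569, 804 and 110, with the sample in Cy3 only 985, 416, 569 and 86, and in Cy5 only 45, 14, 31 and 16. The share of calls that were higher in TIP60-si was 40.3% as reported, 30.1% with plain subtraction, 19% with equal spread and 26.9% with equal spread without USP7-si replicate 4.

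Leaving out each replicate in turn gave 1500 to 3353 probes, 534 to 1339 higher, 952 to 2014 lower and 119 to 204 list genes. The total was lowest without USP7-si replicate 3 (1500), USP7-si replicate 1 (1532), TIP60-si replicate 3 (1614) or USP7-si replicate 4 (1895), and the higher calls were 754 without TIP60-si replicate 1. Without USP7-si replicate 4, 21 named genes missed the threshold (adjusted p 0.0506 to 0.151). Without USP7-si replicate 3 it was 25, and without USP7-si replicate 1 or TIP60-si replicate 3 it was 27 each. No background correction (2589), the authors' ratios (2463), dim probes left out (3232), array quality weights (4061) and the 8 knockdown arrays alone (2471) stayed within 1.5 times of the count.

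The deviations of arrays of 1 replicate number correlated at 0.10, -0.19, -0.11 and -0.083 between TIP60-si and USP7-si. So few correlations cannot settle whether such arrays share more than a number, and the labels do not say. With the replicate block 3353 probes were called, 1357 higher and 1996 lower, and 207 list genes. Slide and scan as a block were not run, since no such labels were used here.

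Of 117 named genes 87 kept their direction throughout. With arrays scaled to an equal spread the difference turned for Prl2c1 -0.75, Prl2c5 -1.17, Prl2c3 -0.97, Ogn 1.11, Scd1 -0.72, Thrsp -0.38, Agpat2 -0.046, Adig -0.079, Lipe -0.45, Cidec -1.62, Pnpla2 -1.49, Adipor2 -0.13, Fitm2 -0.13, Tk1 -0.12, Spp1 -0.30, Col1a1 0.081, Rbl2 0.0086, Cdkn1b 0.12, Egr1 0.17, Myc -0.18, Prdx1 -0.00056, Uqcrc1 -0.070, H2ac13 -0.10, Runx2 0.12, Col12a1 0.87, Col4a5 0.086, Plk2 0.81 and Col6a3 -0.21. With USP7-si replicate 4 left out as well it turned for Scd1 -0.0015, Thrsp -0.012, Lipe -0.021, Cidec -0.42, Pnpla2 -0.44, Col12a1 0.11 and Plk2 0.12. With equal SD it turned for Cidec -0.24, Pnpla2 -0.29, Col12a1 0.086 and Plk2 0.092, with quantile normalization for Pnpla2 (-0.067), and with median centring for Ncl -0.023 and Gclm -0.0024. The cause was not tested.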
